A study of Danio rerio with 2 samples.

Results

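The S100 family was followed through the cells of the zebrafish pituitary. S100 proteins are small calcium-binding proteins of vertebrates that pair into dimers, change shape when calcium binds their EF-hand motifs and then attach to target proteins such as the annexins. In the mammalian pituitary and brain, S100B is a familiar marker of folliculostellate cells and of glia, and S100A10 is a member that binds annexin A2 without needing calcium. The 9 genes described are *s100t*, *s100z*, *s100u*, *s100b*, *s100a10b*, *s100a1*, *s100w*, *s100s* and *s100v2*, out of 14 S100 family genes among the 32057 genes of the count tables. They were chosen by name, with values measured in these libraries already known, so their levels are given as descriptions.

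The samples were pituitaries of 6-month-old males, pooled from 30 fish per group, from *cck1*-/-;*cck2*-/- fish (cck1/2-KO) and from WT fish. The cck1/2-KO fish carry deletion mutations in both cholecystokinin genes in every tissue. Each group gave 1 droplet library, in which each RNA molecule carries a unique molecular identifier (UMI). A difference between the libraries therefore has no replicate check, and no test could be made between them. Intervals are exact 95% intervals that cover counting error only.

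The cck1/2-KO library held 15910570 UMIs in 3755 barcodes and the WT library 22358017 UMIs in 5236 barcodes, and 3458 cck1/2-KO and 4864 WT cells were kept, with medians of 982.5 and 882 UMIs. The libraries shared 11 barcodes, and the 10 kept cells with such a barcode held 37 S100 UMIs in cck1/2-KO and 11 in WT. Of the targeted genes, *ccka* (ENSDARG00000070810) had 14 UMIs in 12 cck1/2-KO cells and 144 UMIs in 14 WT cells, 122 of them in 1 cell, and where its reads lie relative to the deletion was not examined, so it does not check the labels. Cells were clustered without any S100 gene, without hormone genes and without mitochondrial genes, and clusters were named from marker genes or, where markers did not allow a name, from a leading gene. Levels are UMIs of the gene per 1000000 UMIs (CPM) summed over the cells of a cluster. The tables give no transcript lengths, so levels were compared between clusters and libraries and not between genes.

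Of the 9 genes, 7 had at least 50 UMIs over both libraries. The remaining *s100a1* and *s100s* were close to absent. *s100a1*, whose mammalian counterpart is best known from heart muscle, had 1 UMI in cck1/2-KO and 4 UMIs in 3 cells in WT. *s100s* had 7 UMIs in 4 cells in cck1/2-KO and 11 UMIs in 7 cells in WT, with 5 of the WT UMIs in 1 prl-rich cell and 4 of the cck1/2-KO UMIs in 1 neuron-like cell. The 7 measured genes differed in where they were highest. *s100t* and *s100z* were highest in hormone clusters, *s100b* in oligodendrocyte-like cells with a second site in gonadotrope-like cells, and *s100a10b*, *s100v2* and *s100w* in connective tissue cells. *s100u* was highest in gonadotrope-like cells in cck1/2-KO and in mesenchymal-like cells in WT. The highest cluster was the same in both libraries for 5 of the 7 genes, and differed for *s100z* and *s100u*. For both this difference is uncertain. The highest cck1/2-KO cluster of *s100z*, prl-rich, had 4 UMIs. Without the cell with the most UMIs, *s100u* was highest in lum-rich mesenchymal-like cells in cck1/2-KO and in endothelial-like cells in WT.

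**Figure D1:**
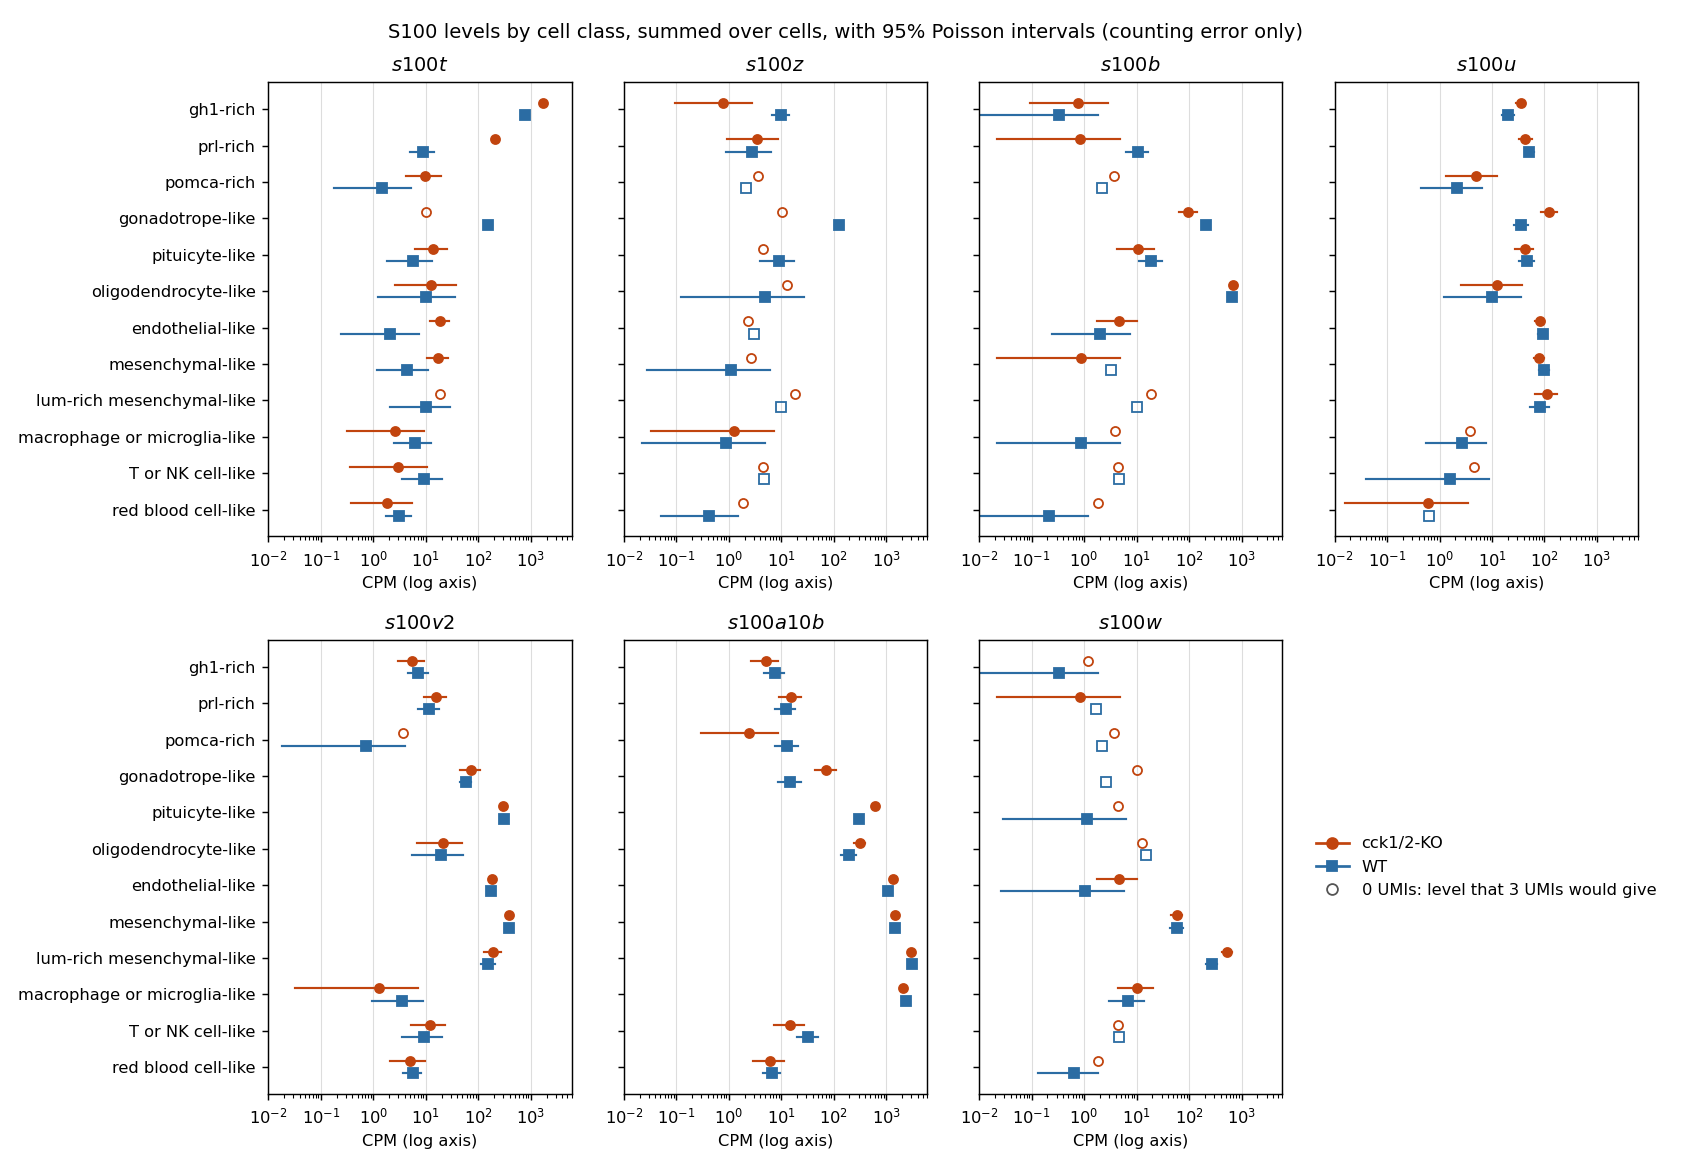
Level of 7 S100 genes in 12 cell classes, in CPM on a log axis, with cck1/2-KO as circles above WT as squares and lines for 95% Poisson intervals; open symbols mark classes with 0 UMIs at the level that 3 UMIs would give. *s100t* stands at 1697 CPM in cck1/2-KO and 768 CPM in WT gh1-rich cells, *s100b* at 697 and 659 CPM in oligodendrocyte-like cells, and *s100a10b* at 3019 and 3156 CPM in lum-rich mesenchymal-like cells.

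*s100t* (ENSDARG00000055589) marked the gh1-rich cluster, the cells with the most mRNA of growth hormone. It had 4363 UMIs there in cck1/2-KO and 2364 UMIs in WT, which is 88.1% of all *s100t* UMIs in cck1/2-KO and 85.3% in WT. The level was 1697 CPM in cck1/2-KO (1647 to 1748) and 768 CPM in WT (738 to 800). Of the cells, 123 of 167 held the transcript in cck1/2-KO and 99 of 185 in WT, or 73.7% and 53.5%, at median depths of 13525 and 12373 UMIs. With each cell thinned to 1000 UMIs, the shares were 52.0% in cck1/2-KO and 28.5% in WT. As the background from free RNA, red blood cell-like cells, at medians of 10420.5 UMIs in cck1/2-KO and 7990 UMIs in WT, held *s100t* in 3 of 154 cck1/2-KO cells and 14 of 589 WT cells, or 1.95% and 2.38%. Other non-hormone clusters were less alike between libraries. Endothelial-like cells had 18.8 CPM in cck1/2-KO and 2.04 CPM in WT, and mesenchymal-like cells 17.3 and 4.37 CPM. Macrophage or microglia-like cells went the other way, at 2.57 and 6.13 CPM, as did T or NK cell-like cells, at 2.98 and 9.40 CPM. None of these 4 had more than 24 *s100t* UMIs in a library. *s100t* took no part in the clustering and still ranked among the 10 leading genes of the gh1-rich cluster. The cluster had 2 of 6 somatotrope markers, *gh1* and *pou1f1*, and is therefore called by its hormone.

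Within the gh1-rich cluster *s100t* was uneven from cell to cell. The median cell held 9 *s100t* UMIs in cck1/2-KO and 1 in WT, and the highest cell 254 and 240. Cells without any numbered 44 in cck1/2-KO and 86 in WT, and cells with 10 or more UMIs 82 and 48. The 16 cck1/2-KO cells with the most *s100t* carried 48.8% of the cluster's *s100t* UMIs, and the 18 WT cells with the most carried 69.5%. The 2 libraries thus overlapped over the whole range, and differed in how many cells were above 0 and how many held 10 or more UMIs.

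The log2 ratio of cck1/2-KO to WT for *s100t* in gh1-rich cells was 1.14 (1.07 to 1.22). The median of all genes in these cells was itself at 0.38, and *gh1* took 156863 CPM in cck1/2-KO and 311158 CPM in WT. With hormone, haemoglobin and mitochondrial UMIs left out of the total, which moved every ratio there by -0.31, the ratio of *s100t* was 0.84 and no longer at least 2-fold. The source of the remaining ratio was not tested. Among all genes with at least 50 UMIs in this cluster, 17.3% were at least 2-fold higher in cck1/2-KO and 3.24% at least 2-fold lower; of the 2 members with that many UMIs, *s100t* was past 2-fold and *s100u* was at 0.79 (0.31 to 1.28).

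Cells were next grouped, within each library, by the share of their UMIs that was *gh1*. In cck1/2-KO, the CPM of *s100t* with hormone, haemoglobin and mitochondrial genes left out of the total was 3214, 1809, 1600 and 952 in the 4 groups from lowest to highest *gh1*. In WT the groups cut in this way had 1217, 1048, 1131 and 1191. *gh1* took 5.53%, 13.6%, 19.3% and 27.3% of UMIs in the cck1/2-KO groups. In the WT groups it took 9.06%, 18.1%, 25.2% and 45.1%, so groups of the same rank were not alike in *gh1*. Cells with *s100t* numbered 38 of 42, 33 of 42, 28 of 41 and 24 of 42 in cck1/2-KO, and 29 of 47, 19 of 46, 27 of 46 and 24 of 46 in WT. The *s100t* level thus went down as *gh1* went up in cck1/2-KO, beyond counting error between the lowest and the highest group, and stayed within 1048 to 1217 in WT. In each library's group with the most *gh1* the cck1/2-KO level was below the WT level, with intervals of 861 to 1050 and 1116 to 1270. These groups differed in *gh1*, at 27.3% and 45.1% of UMIs. The WT group nearest in *gh1* to the cck1/2-KO one, at 25.2%, had an interval of 1033 to 1236, which overlapped that of cck1/2-KO. Of the 940 *s100t* UMIs in the WT group with the most *gh1*, 1 cell held 240 and another 215. Of the 2287 in the cck1/2-KO group with the least *gh1*, 1 cell held 254 and another 238. The intervals do not cover such unevenness between cells, so this order of the libraries and the size of the fall in cck1/2-KO are uncertain. The highest WT group also had the deepest cells, with a median of 30472 UMIs against 9129 to 12428.5 in the other WT groups and 12701.5 to 15078 in the cck1/2-KO groups. The part of depth in this pattern was not tested.

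**Figure D2:**
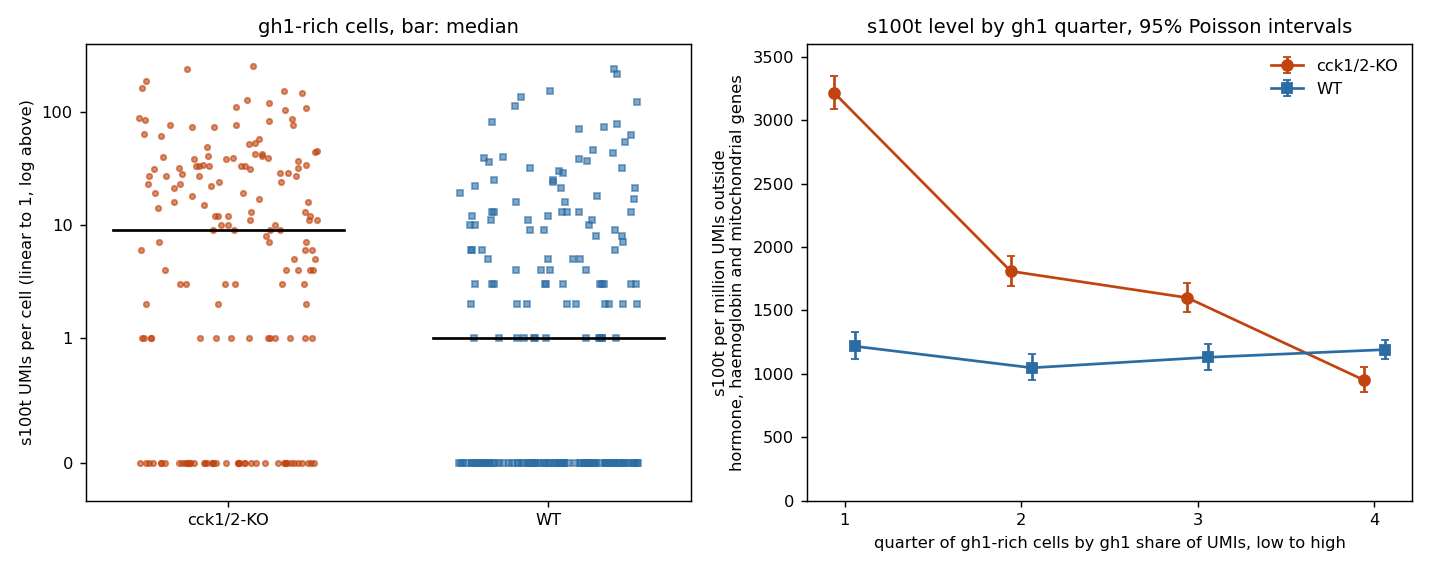
Left, *s100t* UMIs in each gh1-rich cell (linear up to 1, log above) with bars at the medians, 9 in 167 cck1/2-KO cells and 1 in 185 WT cells. Right, CPM of *s100t* with hormone, haemoglobin and mitochondrial genes left out of the total in 4 groups of cells from low to high *gh1*, cut within each library, with 95% Poisson intervals: from 3214 to 952 in cck1/2-KO (circles) and between 1048 and 1217 in WT (squares).

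Outside the gh1-rich cluster, *s100t* had 588 UMIs in cck1/2-KO and 407 in WT, and its place differed between the libraries. A shallow cluster with *gh1* among its leading genes (medians of 660 UMIs in cck1/2-KO and 711.5 in WT) had 415 CPM in cck1/2-KO and 171 CPM in WT. In the prl-rich cluster most cells held mRNA of prolactin, thyrotropin beta or somatolactin. It had 246 UMIs in 15 of 88 cck1/2-KO cells and 16 UMIs in 11 of 168 WT cells, or 210 CPM (184 to 237) and 8.81 CPM (5.03 to 14.3). The log2 ratio there was 4.57 (3.84 to 5.40), and 4.37 without the cell with the most *s100t* in each library. Of the cck1/2-KO UMIs, 93 were in 14 cells with no UMI of these hormones, 76 of them in 1 cell. Cells with prolactin as the leading hormone held 110, 46 of them in 1 cell, at 176 CPM in cck1/2-KO and 7.86 CPM in WT. The interval does not cover such unevenness between cells. In cck1/2-KO, 8 cells of the cluster had 3 or more *s100t* UMIs and held 237 of the 246, and *gh1* was over 1% of UMIs in 2 of the 8. In the prl-rich cluster 5.34% of all genes were at least 2-fold higher in cck1/2-KO and 4.1% at least 2-fold lower, and of 2 members with at least 50 UMIs, *s100t* was higher and *s100u* was at -0.25 (-0.77 to 0.25).

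Gonadotrope-like cells, named from 5 of 6 markers (*lhb*, *fshb*, *cga*, *gnrhr2* and *nr5a1b*), were without an *s100t* UMI in cck1/2-KO. The cluster had 20 cck1/2-KO cells and 109 WT cells, with medians of 13233.5 and 9359 UMIs. *s100t* had 0 UMIs in cck1/2-KO and 176 UMIs in 11 WT cells, which is 155 CPM (133 to 179). Taking 3 UMIs for the 0, the level in cck1/2-KO was at least 15.04-fold lower, and the exact interval of the ratio reached up to -3.60 on the log2 scale. Only 11 of 109 WT cells held the transcript, so 20 cells were too few to tell whether the share of cells differed. The bound and the interval do not cover this unevenness between cells. A single WT cell held 88 of the 176 UMIs, and without it the same bound was -2.86 on the log2 scale. The 9 WT cells with 3 or more UMIs had *gh1* at 0.035% to 0.105% of their UMIs. Single gh1-rich WT cells ranged from 0.116% to 59.96%, with a median of 21%.

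*s100z* (ENSDARG00000038729) was a gonadotrope gene in WT and nearly missing from the cck1/2-KO library. Over all cells it had 10 UMIs, each in a cell of its own, in cck1/2-KO, and 224 UMIs in WT. The log2 ratio was -3.99 (-5.07 to -3.08), and it lay between -4.17 and -3.86 when the cells, the denominator or the highest cells were changed. In the gonadotrope-like cluster 0 UMIs were found in cck1/2-KO and 145 UMIs in 35 of 109 cells in WT, or 127 CPM (107 to 150). With 3 UMIs in place of the 0, the cck1/2-KO level was at least 12.4-fold lower, and the exact interval of the ratio reached up to -3.31 on the log2 scale. Cells with a UMI numbered 0 of 20 in cck1/2-KO, which at 3 counts allows a share of cells with a UMI of up to 15%, against 32.1% in WT. No WT cell held more than 17 of these UMIs. Red blood cell-like cells had 0 UMIs in cck1/2-KO and 2 UMIs in WT, or 0.340% of the 589 WT cells.

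*s100z* was also lower in cck1/2-KO outside gonadotrope-like cells. Outside that cluster *s100z* had 10 UMIs in 3438 cck1/2-KO cells, 0.663 CPM (0.318 to 1.22), and 79 UMIs in 51 of 4755 WT cells, 3.83 CPM (3.04 to 4.78). The gh1-rich cells had 2 UMIs in cck1/2-KO and 30 UMIs in WT, and the shallow cluster with *gh1* had 0 UMIs in cck1/2-KO and 14 UMIs in WT. The prl-rich cells had 4 UMIs in cck1/2-KO and 5 in WT, a log2 ratio of 0.31 (-2.03 to 2.52), too few UMIs to tell whether the level differed there.

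Gonadotropes of fish make luteinizing hormone, follicle-stimulating hormone or both. For each of *lhb* and *fshb*, positive cells were those whose UMIs per 10000 lay above the 99th percentile of the same library's cells outside the cluster. This gave 13 LH-only, 5 bi-hormonal and 1 FSH-only cck1/2-KO cells and 64 LH-only, 18 bi-hormonal and 16 FSH-only WT cells, with 1 and 11 cells in neither group. The *fshb* threshold was 0 per 10000 in cck1/2-KO and 19.3 in WT, so that any *fshb* UMI sufficed in cck1/2-KO, where the cluster held 25 *fshb* UMIs against 7882 in WT. The *lhb* threshold was 16.2 per 10000 in cck1/2-KO and 38.5 in WT. The *lhb* level was 42248 CPM in cck1/2-KO and 55714 CPM in WT.

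In WT, *s100z* went with *fshb*. FSH-only cells had 395 CPM (297 to 515) with 13 of 16 cells positive, bi-hormonal cells had 336 CPM (256 to 433) with 12 of 18 positive, and LH-only cells had 29.8 CPM (18.9 to 44.7) with 8 of 64 positive. The intervals of FSH-only and bi-hormonal cells overlapped and that of LH-only cells did not reach them, although LH-only cells were deeper, with a median of 12022 UMIs against 8358.5 in FSH-only and 9184.5 in bi-hormonal cells. The 13 LH-only cck1/2-KO cells had 0 *s100z* UMIs, which 3 UMIs would put at 19.2 CPM, against 29.8 CPM in LH-only WT cells. The interval for the 0 reached 23.6 CPM, so that a difference between LH-only cells of the 2 libraries was not detectable at this depth. These groups were not fully alike. By the thresholds, LH-only cck1/2-KO cells held no *fshb* UMI, while LH-only WT cells could hold up to 19.3 per 10000. The 6 cck1/2-KO cells with any *fshb* UMI also had 0 *s100z* UMIs, with an upper bound of 23.5 CPM at 3 UMIs, against 362 CPM in the 34 FSH-only and bi-hormonal WT cells.

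**Figure D3:**
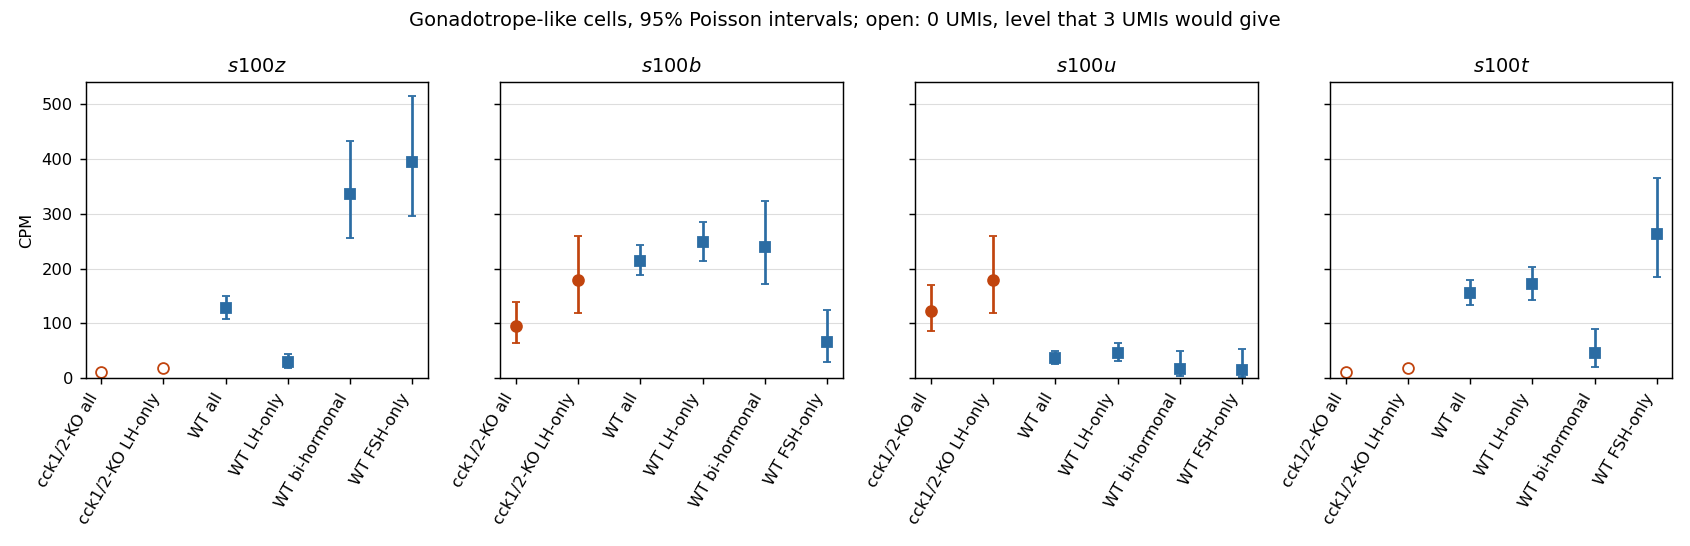
CPM of 4 S100 genes in gonadotrope-like cells, all of them or split by *lhb* and *fshb*, with cck1/2-KO as circles left of WT as squares, 95% Poisson intervals, and open circles for 0 UMIs at the level of 3 UMIs. In WT *s100z* is at 395 CPM in FSH-only and 29.8 CPM in LH-only cells, while *s100b* is at 65.8 and 248 CPM; the *s100t* value of FSH-only cells comes from 1 cell.

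*s100b* (ENSDARG00000057598), the glial S100 gene of mammals, was highest in oligodendrocyte-like cells, which wrap axons in myelin and were named from 7 of 9 markers with *mpz* and *mbpb* among the leading genes. It had 165 UMIs in 44 of 73 cck1/2-KO cells and 133 UMIs in 42 of 72 WT cells. The level was 697 CPM (595 to 812) in cck1/2-KO and 659 CPM (552 to 781) in WT, a log2 ratio of 0.08 (-0.26 to 0.42). The 2 libraries did not differ beyond counting error here. Pituicyte-like cells, the glia of the neural lobe, were far lower, at 10.4 CPM in cck1/2-KO and 19.05 CPM in WT. Of 2 members measured in oligodendrocyte-like cells, 0 were at least 2-fold higher and 0 lower, against 5.51% and 4.51% of all genes.

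The second site of *s100b* was the gonadotrope-like cluster. There it had 28 UMIs in 4 of 20 cck1/2-KO cells and 244 UMIs in 54 of 109 WT cells, or 95.9 CPM (63.7 to 139) and 214 CPM (188 to 243). Red blood cell-like cells had 0 *s100b* UMIs in 154 cck1/2-KO cells and 1 in 589 WT cells. The myelin gene *cldnk*, at 498 CPM in cck1/2-KO and 684 CPM in WT in oligodendrocyte-like cells, had 0 UMIs in gonadotrope-like cells of both libraries, while *mbpb* had 9 UMIs in cck1/2-KO and 72 in WT. The log2 ratio of *s100b* was -1.16 (-1.78 to -0.59). In cck1/2-KO, 1 cell held 16 of the 28 UMIs, and without the highest cell of each library the ratio was -2.18 (-3.16 to -1.35).

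Within WT gonadotrope-like cells *s100b* had the opposite order to *s100z*. LH-only cells had 248 CPM (214 to 285), bi-hormonal cells 239 CPM (172 to 323) and FSH-only cells 65.8 CPM (30.1 to 125). It was found in 41 of 64 LH-only, 9 of 18 bi-hormonal and 2 of 16 FSH-only cells. In cck1/2-KO all 28 UMIs were in LH-only cells, at 179 CPM (119 to 259) in 4 of 13 cells, and this interval overlapped that of LH-only WT cells. Of the 109 WT cells, 16 held both *s100z* and *s100b*, 19 *s100z* alone, 38 *s100b* alone and 36 neither.

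*s100u* (ENSDARG00000071014) was the member that was higher in cck1/2-KO gonadotrope-like cells. It had 36 UMIs in 10 of 20 cck1/2-KO cells and 41 UMIs in 23 of 109 WT cells, at 123 CPM (86.3 to 171) and 36 CPM (25.8 to 48.8), a log2 ratio of 1.78 (1.09 to 2.46). The highest cell had 7 UMIs in cck1/2-KO and 4 in WT. In LH-only cells alone, 8 of 13 cck1/2-KO cells and 19 of 64 WT cells held it, at 179 CPM (119 to 259) and 45.4 CPM (31.6 to 63.1), so the difference was present among LH-only cells too. In red blood cell-like cells *s100u* had 1 UMI in cck1/2-KO and 0 in WT.

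Of the 5 members with at least 50 UMIs in gonadotrope-like cells, 1 was at least 2-fold higher in cck1/2-KO and 3 were at least 2-fold lower, namely *s100t*, *s100z* and *s100b*. The fifth, *s100v2*, was at 0.31 (-0.47 to 1.04). Among all genes of this cluster 9.34% were at least 2-fold higher and 14.6% at least 2-fold lower. The cck1/2-KO cells numbered 20, and cells of 1 library are not replicates.

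Elsewhere *s100u* was a gene of vessels and connective tissue. It had 80.6 CPM in cck1/2-KO and 92.8 CPM in WT in endothelial-like cells, 78.8 and 99.4 CPM in mesenchymal-like cells and 111 and 83.3 CPM in lum-rich mesenchymal-like cells. All of these intervals overlapped, both between libraries and between these clusters. Macrophage or microglia-like cells had 0 UMIs in cck1/2-KO and 2.63 CPM in WT.

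*s100a10b* (ENSDARG00000025254), a zebrafish counterpart of the annexin A2 partner S100A10, had 6850 UMIs in cck1/2-KO and 7896 UMIs in WT. Its highest cluster was lum-rich mesenchymal-like, fibroblast-like cells with the matrix genes *lum* and *col1a1a*, where 21 of 22 cck1/2-KO cells and 27 of 28 WT cells held it, at 3019 CPM (2757 to 3299) and 3156 CPM (2958 to 3363). Macrophage or microglia-like cells followed, with 2102 CPM in cck1/2-KO and 2356 CPM in WT, then mesenchymal-like cells with 1468 and 1453 CPM and endothelial-like cells with 1330 and 1086 CPM. The intervals of these neighbours in the order did not overlap within either library. T or NK cell-like cells, also immune cells, had 14.9 CPM (7.13 to 27.4) in cck1/2-KO and 32.9 CPM (20.4 to 50.3) in WT. Red blood cell-like cells had 6.15 CPM (2.95 to 11.3) in cck1/2-KO and 6.70 CPM (4.58 to 9.45) in WT, so that the intervals of these cell types overlapped in cck1/2-KO and did not in WT.

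The level of *s100a10b* differed little between the libraries in these 4 clusters. The log2 ratio was -0.06 (-0.22 to 0.10) in lum-rich mesenchymal-like, -0.16 (-0.25 to -0.07) in macrophage or microglia-like, 0.01 (-0.09 to 0.12) in mesenchymal-like and 0.29 (0.18 to 0.40) in endothelial-like cells. Macrophage or microglia-like cells differed in depth, with medians of 4610 UMIs in cck1/2-KO and 1478.5 UMIs in WT. The endothelial-like cluster also held 6 markers of pericytes or smooth muscle. In the cells with pericyte markers only, 122 of 275 *s100a10b* UMIs in cck1/2-KO and 172 of 177 in WT were in 1 cell, so no level is given for them.

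Pituicyte-like cells were the cluster in which *s100a10b* was past 2-fold. It had 410 UMIs in 64 of 95 cck1/2-KO cells and 268 UMIs in 72 of 142 WT cells, at 611 CPM (553 to 673) and 300.3 CPM (265 to 338), with a log2 ratio of 1.02 (0.80 to 1.25). The ratio was 0.96 without the highest cell of each library, and lay under 1 in 4 of the 9 alternatives tried. Median depths were close, 1598 UMIs in cck1/2-KO and 1427.5 in WT. Among all genes in pituicyte-like cells 5% were at least 2-fold higher and 9.88% at least 2-fold lower; of 3 members, 1 was higher and 0 lower. Oligodendrocyte-like cells had 313 CPM in cck1/2-KO and 193 CPM in WT, a log2 ratio of 0.69 (0.12 to 1.29). In gonadotrope-like cells 19 of the 21 cck1/2-KO UMIs were in 1 cell.

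*s100v2* (ENSDARG00000070702) had close levels in both libraries wherever it was measured. Mesenchymal-like cells were highest, at 391 CPM (356 to 429) in cck1/2-KO and 393 CPM (354 to 436) in WT, followed by pituicyte-like cells at 294 and 313 CPM and endothelial-like cells at 185 and 177 CPM. In these 3 clusters its log2 ratios lay between -0.09 and 0.06, and each interval included 0. Unlike *s100a10b*, it was near the red blood cell-like level of 4.92 CPM in cck1/2-KO and 5.65 CPM in WT in macrophage or microglia-like cells, at 1.28 and 3.50 CPM.

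*s100w* (ENSDARG00000101181) was highest in lum-rich mesenchymal-like cells. The lum-rich mesenchymal-like cells, 22 of 3458 cells in cck1/2-KO and 28 of 4864 in WT, held 45.5% of its UMIs in cck1/2-KO and 48.5% in WT. It had 87 UMIs in 18 of 22 cck1/2-KO cells and 81 UMIs in 18 of 28 WT cells there, at 538 CPM (431 to 664) and 270 CPM (214 to 335), a log2 ratio of 0.996 (0.54 to 1.45) that lay just under the 2-fold line. In mesenchymal-like cells it was at 58.0 CPM in cck1/2-KO and 57.9 CPM in WT, a log2 ratio of 0.00 (-0.54 to 0.55).

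**Figure D4:**
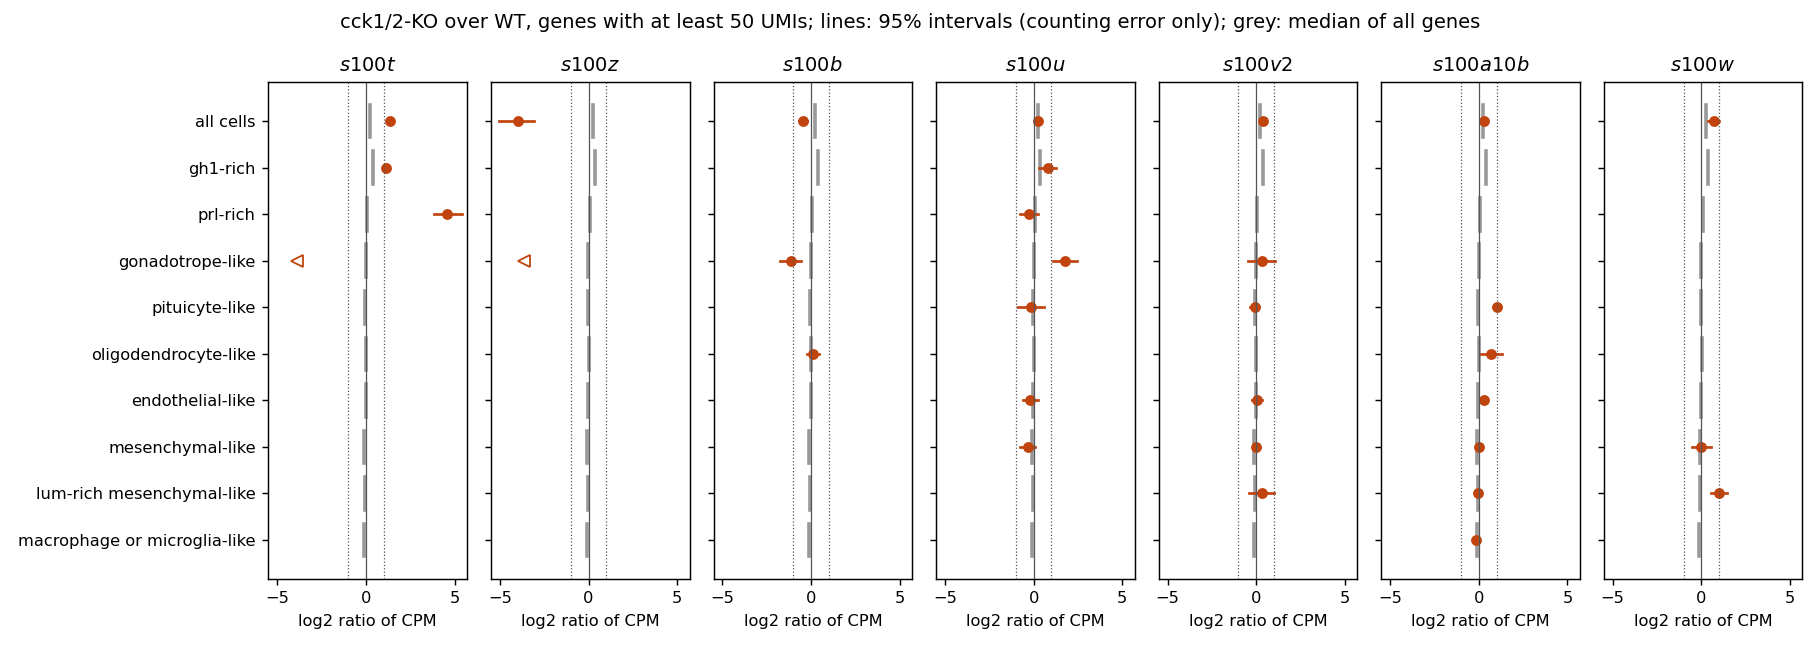
Log2 ratio of CPM in cck1/2-KO over WT for each member with at least 50 UMIs in a class, with 95% intervals; dotted lines mark 2-fold, grey bars the median of all genes, and open triangles the bound when cck1/2-KO had 0 UMIs. *s100t* lies at 4.57 in prl-rich and at the bound of -3.91 in gonadotrope-like cells, and *s100v2* lies between -0.09 and 0.36 in every class shown.

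In the non-hormone clusters at most 4 members were measured, too few to tell their counts past 2-fold from the shares of all genes. In endothelial-like cells 0 of 3 members were at least 2-fold higher and 0 lower, against 3.89% and 4.58% of all genes. In mesenchymal-like cells 0 of 4 were higher and 0 lower, against 6.68% and 10.9%, in lum-rich mesenchymal-like cells 0 of 3 and 0, against 9.22% and 8.78%, and in macrophage or microglia-like cells 0 of 1 and 0, against 6.46% and 13.7%. Over all cells 1 of 7 members was higher, *s100t* at 1.34 (1.27 to 1.40), and 1 lower, *s100z*, against 8.14% and 2.47% of all genes. The other members lay at 0.27 for *s100u*, -0.44 for *s100b*, 0.29 for *s100a10b*, 0.69 for *s100w* and 0.36 for *s100v2*, with the median of all genes at 0.24. The mix of cells also differed, with gonadotrope-like cells 20 of 3458 in cck1/2-KO and 109 of 4864 in WT. Outside gonadotrope-like cells *s100b* had 13.1 CPM in cck1/2-KO and 9.12 CPM in WT, while *s100z* was still lower and *s100t* still higher in cck1/2-KO. The part of the cell mix in these ratios was not tested.

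Some of the genes lie side by side in the genome. In the RefSeq annotation of zebrafish assembly GRCz12tu, used here only for neighbours because the reads were aligned to GRCz11, *s100a10b* and *s100w* are adjacent on chromosome 16 beside the family members *icn* and *icn2*, and both were highest in lum-rich mesenchymal-like cells, as was *icn*. On the same chromosome, *s100t* was a gene of gh1-rich cells, *s100a1* was hardly detected, and *icn2*, next to *icn*, had few UMIs. On chromosome 19, *s100a11*, *s100u* and *s100s* are also adjacent. Of these, *s100s* was close to absent while *s100u* was among the measured genes, so adjacent genes did not all share a pattern.

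For each of the 7 measured members, the genes with the most similar pattern were sought by Pearson correlation of log2(CPM + 10) over 38 points, 19 clusters in each of the 2 libraries, among 16526 genes. These points share library and depth, and the correlations are descriptions. *s100z* was closest to *fam163ab* (r = 0.85), *fshb* (0.83) and PRMT8 (0.82). *s100t* was closest to THSD7B (0.88), and *s100u* to ENSDARG00000059333 (0.90) and *ephb4a* (0.90), a receptor of venous endothelium. *s100b* was closest to *gpr37b* (0.93), whose mammalian relatives are expressed in myelinating glia, and *s100a10b* to *anxa1a* (0.93), an annexin, and to *icn* (0.92). *s100w* was closest to *sgcg* (0.96) and FIBIN (0.96), and *s100v2* to *ccn2a* (0.92) and *cxcl18b* (0.92). Among the members themselves the closest pair was *s100u* with *s100v2* (0.79), then *s100a10b* with *s100v2* (0.68), and *s100t* with *s100z* had 0.35.

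Proteins that S100 dimers bind in mammals were taken as a list of 30 genes, of which 27 were in the files, among them annexins, the ubiquitin-related adaptors *cacybp* and *sugt1*, and calcium pumps. In gonadotrope-like cells 11 had at least 50 UMIs, and 1 was at least 2-fold higher in cck1/2-KO (*nucb2a*, a calcium-binding protein of the Golgi, at 95.9 CPM in cck1/2-KO and 46.5 CPM in WT) and 0 lower, against 9.34% and 14.6% of all genes, with a median log2 ratio of 0.27 against -0.0033 for all genes. In gh1-rich cells 15 were measured and 3 were higher (*cacybp*, *sugt1* and the calcium pump *atp2a2a*, at 1.04, 1.02 and 1.14) and 1 lower (*anxa2a*, 4.28 CPM in cck1/2-KO and 20.5 CPM in WT), against 17.3% and 3.24% of all genes, with a median of 0.25 against 0.38 for all genes. Relative to hormone-free totals the 3 higher genes were under 2-fold. In lum-rich mesenchymal-like cells, the site of *s100a10b*, 5 partners were measured and 0 were past 2-fold in either direction. *anxa2a* had 1454 CPM there in cck1/2-KO and 2006 CPM in WT, and *anxa1a* had 3217 and 3166 CPM. In mesenchymal-like cells 0 of 16 were higher and 4 lower (*anxa13*, *cacybp*, *atp2a2a* and *atp2a2b*), against 6.68% and 10.9% of all genes, with a median of -0.51 against -0.10 for all genes. In macrophage or microglia-like cells 0 of 15 were higher and 4 lower, led by *anxa3b* at 313 CPM in cck1/2-KO and 1775 CPM in WT, against 6.46% and 13.7% of all genes.

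Other EF-hand calcium sensors and buffers formed a list of 29 genes, 27 of them in the files. In gonadotrope-like cells 2 of 9 measured were at least 2-fold higher in cck1/2-KO (*calm2b*, a calmodulin gene, and *pdcd6*) and 1 lower (*hpcal4*, a neuronal calcium sensor), against 9.34% and 14.6% of all genes, with a median of 0.13. In gh1-rich cells 2 of 12 were higher (*ncs1b* and *vsnl1a*, both neuronal calcium sensors) and 0 lower, against 17.3% and 3.24% of all genes, with a median of 0.31 against 0.38 for all genes.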

How the data were processed

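The authors dissociated pooled pituitaries, made 1 droplet library per group, counted UMIs per gene and barcode with Cell Ranger on GRCz11 (per the submitters' processing notes) and deposited the counts, not normalized, for each barcode. Deposited barcodes have 20 letters, while the labels describe a shorter one; the files hold no barcode under 500 UMIs. Quality control in Seurat is named without its settings, and the authors' cell labels were not used.

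Cells with at least 200 genes and at most 20% mitochondrial UMIs were kept. Fewer genes removed 192 cck1/2-KO and 154 WT barcodes, mitochondrial UMIs 4 and 12. The automatic threshold of Scrublet marked 0% of cells, so the highest scores were removed at 0.8% per 1000 barcodes, 101 and 206. Counts were scaled to 10000 UMIs, log-transformed and clipped at 10, and 2000 variable genes, 30 components and 20 neighbours were used for Leiden clustering at resolution 1 (Python 3.11.15, scanpy 1.11.5, leidenalg 0.10.2, scipy 1.17.1). A cluster was named "-like" when at least 3 listed markers were found in at least 10% of its cells at 2 or more times the level elsewhere, and no other type led its 10 leading genes. Clusters with fewer than 20 cells in either library were not ranked, and 1 further cluster is not reported here.

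UMIs were summed per cluster and library. CPM have exact Poisson intervals, ratios exact conditional ones and shares Clopper-Pearson ones, all at 95%; a 0 was bounded with 3 counts. A gene was called past 2-fold with a ratio of at least 2 or at most 0.5 and at least 50 UMIs over both libraries in the cluster. No test across conditions was possible, since cells are not replicates. The interval code was tested on simulated counts. Similar genes were the 3 with the highest correlation to a member with at least 50 UMIs. Members, gene lists, markers and alternatives were chosen with earlier results of these data known. Genes outside those rules (*ccka*, *cldnk*, *mbpb*) were chosen after their values were seen. No sequences are shown, as none were used here.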

Additional observations from a re-analysis of the deposited data

Results flagged for a closer look

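The log2 ratio of *s100t* in cck1/2-KO over WT had opposite directions in different cell classes. It was 1.14 in gh1-rich and 4.57 in prl-rich cells, and at -3.91 in gonadotrope-like cells with 3 UMIs taken for a 0, where cck1/2-KO had 0 UMIs in 20 cells and WT 176 UMIs in 11 of 109 cells. With 1 library per group this difference between classes was not tested, and 20 cells are few for a transcript held by 11 of 109.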

How the results depend on the processing

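With hormone, haemoglobin and mitochondrial UMIs left out of the totals, the ratios over all cells were 1.16 for *s100t*, 0.089 for *s100u*, 0.11 for *s100a10b* and 0.18 for *s100v2*, and the count of members at least 2-fold higher in gh1-rich cells was 0 in place of 1. The count higher in pituicyte-like cells was 0 in place of 1 with Leiden resolution 2, a mitochondrial limit of 10%, a minimum of 500 genes, or the cell with the most UMIs left out. The count higher in lum-rich mesenchymal-like cells was 1 in place of 0 with at most 10% mitochondrial UMIs, doublets kept, the cell with the most UMIs left out, or the other denominator. The cause was not tested, apart from the denominator, which lowers every ratio. No ratio past 2-fold changed direction. Within classes, 198 of 217 recomputed ratios stayed within the interval of the main value, and the highest class of a gene was the same in 106 of 126 recomputations. Its changes were in *s100w*, *s100a10b*, *s100u*, *s100z* and *s100t*. No paired analysis was possible because each group had 1 library. The number of cells, 20, limits the values of cck1/2-KO gonadotrope-like cells.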

Other observations

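The 5 other S100 family genes of the files have values as follows. *icn* (ictacalcin) had 18961 UMIs in cck1/2-KO and 20520 in WT, with 23082 CPM in cck1/2-KO and 23799 CPM in WT in lum-rich mesenchymal-like cells, 5448 and 4573 CPM in mesenchymal-like cells and 2165 and 1867 CPM in pituicyte-like cells. *s100v1* had 21 UMIs in cck1/2-KO and 56 UMIs in WT over all cells, a log2 ratio of -0.92 (-1.71 to -0.17). *s100a10a* had 19.1 CPM in cck1/2-KO and 27.0 CPM in WT in red blood cell-like cells, where its relative *s100a10b* had 6.15 and 6.70 CPM. *s100a11* had 85 UMIs in cck1/2-KO and 67 in WT, and 34 of the cck1/2-KO UMIs were in 1 endothelial-like cell. *icn2* had 19 UMIs in cck1/2-KO and 7 UMIs in WT.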
